A study of Mus musculus with 4 samples.

Results

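Igfbp4, Dtx1, Dapl1, Rgcc, Ramp1 and Plekho1 are 6 of the 32285 genes counted in CD8-positive T cells from B16F10 tumours. They were chosen by their raised UMI counts in the naive-like cells of these same libraries, so their levels across cell states are given here as a description, without a test. B16F10 is a transplantable mouse melanoma line, grown here in C57BL/6J mice aged 6-8 weeks. Live CD45, CD3 and CD8 positive cells were sorted from the tumours and sequenced as droplet libraries read from the 5′ end. The sgScr group (a scrambled guide RNA, the control) and the sgArid1a group (guide RNA targeting Arid1a, whose product helps the BAF chromatin remodeller bind DNA) had 2 samples each. The labels leave unsaid which cells received the guides. Nothing states that samples came from separate animals, so p-values measure the spread between these samples only, which may be technical.

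A naive CD8 T cell is one that has not yet met its antigen. It recirculates through lymphoid organs, is kept quiescent by transcription factors such as TCF1, LEF1 and KLF2, and switches off much of this programme after activation through its receptor. The 6 genes have different roles. Igfbp4 encodes a secreted protein that binds insulin-like growth factors. Ramp1 encodes the accessory chain that turns the calcitonin receptor-like receptor (Calcrl) into a receptor for the neuropeptide CGRP. Dtx1 encodes Deltex1, a ubiquitin ligase of the Notch pathway that is also known from T cell anergy. Plekho1 encodes a membrane-binding adaptor that associates with casein kinase 2. Rgcc encodes a regulator of the cell cycle that binds the kinase CDK1. Dapl1 encodes a small protein named for its likeness to a death-associated protein.

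After filtering, 38261 T cells remained of 39473 barcodes. The 4 libraries had a median of 2407 to 4027 UMIs (unique molecules) per barcode kept. Between 1.06 and 2.07% of the barcodes of the smaller library recurred in any other library. Cd3e was read at 874 to 947 CPM (UMIs per 1000000 UMIs) in every library. Arid1a stood at 85.2 and 93.6 CPM in sgScr and at 74.2 and 72.6 CPM in sgArid1a (log2 fold change -0.26 ± 0.06 SE, edgeR adjusted p = 0.00419). Other T cell genes moved as much, with Cd8a at 0.37, Cd8b1 at -0.29 and Ptprc at -0.30 (edgeR adjusted p = 0.000316, 0.00521 and 0.00801). Cd3e and Cd3d did not pass (0.32 and 0.12). Over all T cells, 26.4% of 12792 genes were lower and 28% higher by this test. Whether the Arid1a fall came from the guide was not tested. Markers of endothelial cells, fibroblasts and melanoma summed to under 1 CPM in all 4 libraries. Those of B cells summed to 7.86 to 12.95 CPM, and to 14.6 to 17.5 CPM within the naive-like cells. Macrophage markers summed to 8.53 to 12.6 CPM. Markers of natural killer, CD4 or regulatory and gamma-delta T cells each summed to between 1.21 and 4.79 CPM. The 6 dendritic cell and MHC class II markers summed to 40.6 and 53.4 CPM in sgScr and to 107 and 106 CPM in sgArid1a, but to 2.48 to 3.50 CPM within the naive-like cells. The part of these markers of other cells in the results, over all T cells or within naive-like cells, was not tested.

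Cells were clustered without the 6 genes, which gave 13 clusters of T cells. Clusters 1, 2, 5 and 7, with 14703 cells, carried raised naive and central memory markers (8 of 8 in clusters 2 and 5, 6 in cluster 1 and 5 in cluster 7, of a list that includes Ccr7, Lef1 and Tcf7) and are called naive/central memory-like, or naive-like for short. Cluster 7 was led by Cd163l1 and Cxcr5, and 3 stress genes were raised in cluster 2. All 6 genes averaged lower in cluster 7 than in clusters 1 and 5.

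Igfbp4 (ENSMUSG00000017493, chromosome 11, 99041244 to 99054392, GRCm38) was the gene most restricted to naive-like cells. Its level averaged 375 ± 58.8 CPM in cluster 1, 371 ± 52.8 in cluster 5 and 317 ± 82.0 in cluster 2 (mean ± SD, n = 4 libraries), and these ranges overlapped. It then dropped to 115 ± 21.9 CPM in cluster 3, an interferon-stimulated-like cluster led by Iigp1 and Gbp2, and to 47.9 ± 14.7 in naive-like cluster 7. In the cycling-like cells (cluster 6) it was 4.24 ± 2.26 CPM.

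Counted per cell at an equal depth of 1500 UMIs, 24.9% (95% Wilson interval 23.7 to 26.2) and 26.6% (25.2 to 27.9) of naive-like cells held an Igfbp4 UMI in sgScr. The shares in sgArid1a were 21.2% (19.5 to 23.0) and 26.4% (24.9 to 28.0). These intervals cover counting error only, and 638 cells of sgArid1a replicate 1 were too shallow to enter, against 77 to 106 in the other libraries. Without thinning, the shares were 39.8, 40.2, 25.0 and 36.8%. In cycling-like cells, whose median depth was 14324 UMIs against 2546 to 4341 in the 4 naive-like clusters, the thinned share was 0.435% and 0 of 221 cells in sgScr, which at 1500 UMIs allows up to 1.36%, and 0.383 and 0.828% in sgArid1a. Without thinning it was 4.76 and 1.81% against 1.62 and 5.03%.

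Dtx1 (ENSMUSG00000029603, chromosome 5, 120680202 to 120711927) had its highest level outside the naive-like cells. In cluster 11, effector-like cells led by S1pr5, Gzma and Klrg1, it was read at 142 and 120 CPM in sgScr and at 111 and 66.2 CPM in sgArid1a. That range overlapped the one in naive-like cluster 5, with a mean of 62.1 ± 12.6 CPM. Naive-like cluster 2, where Igfbp4 and Plekho1 were high, held only 10.9 ± 3.24 CPM of Dtx1, below the 21.4 ± 1.22 CPM of the memory-like cells (cluster 0). The effector-like cluster is small (476 cells), and its Dtx1 level rests on 15 to 42 UMIs per library.

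Dapl1 (ENSMUSG00000026989, chromosome 2, 59484653 to 59505020) and Rgcc (ENSMUSG00000022018, chromosome 14, 79288756 to 79301645) were also found in early-activated-like cells. This is cluster 9, led by Xcl1, Ccl1, Egr2 and Nr4a1, which are genes induced by receptor signalling. Dapl1 averaged 381 ± 16.0 CPM in cluster 5, 361 ± 32.4 in cluster 1 and 232 ± 46.4 in cluster 9. Interferon-stimulated-like cluster 3 followed at 177 ± 21.1 CPM, with a range that overlapped that of cluster 9. Both means lay above the 157 to 158 CPM of naive-like clusters 2 and 7, with overlapping ranges. Rgcc averaged 167 ± 21.4 CPM in cluster 5, 114 ± 7.03 in cluster 1 and 80.1 ± 32.1 in cluster 9. The last mean joins groups that differed, since in sgScr cluster 9 stood at 60.6 and 45.2 CPM, below the 73.9 and 67.1 CPM of cluster 2. In naive-like cluster 7 Rgcc was at 25.4 ± 2.52 CPM, no higher than the 29.1 ± 8.02 CPM of memory-like cells within the spread.

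Ramp1 (ENSMUSG00000034353, chromosome 1, 91179822 to 91225196) was highest in clusters 5 and 1, at 104 ± 28.5 and 80.3 ± 12.9 CPM. From cluster 2 at 38.7 ± 8.75 CPM down to the memory-like cells at 8.34 ± 1.07 CPM, each cluster's range overlapped that of the next. Cluster 4, led by the granzyme genes Gzmg, Gzmd, Gzme and Gzmf with all 8 exhaustion markers raised, still held 24.3 ± 7.72 CPM. Plekho1 (ENSMUSG00000015745, chromosome 3, 95988429 to 95996001) was the one gene of the 6 with its highest mean in cluster 2, at 83.2 ± 14.2 CPM. Clusters 5 and 1 followed at 57.2 ± 7.32 and 53.6 ± 5.20 CPM, and cluster 7 at 17.8 ± 6.34 CPM.

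**Figure D1:**
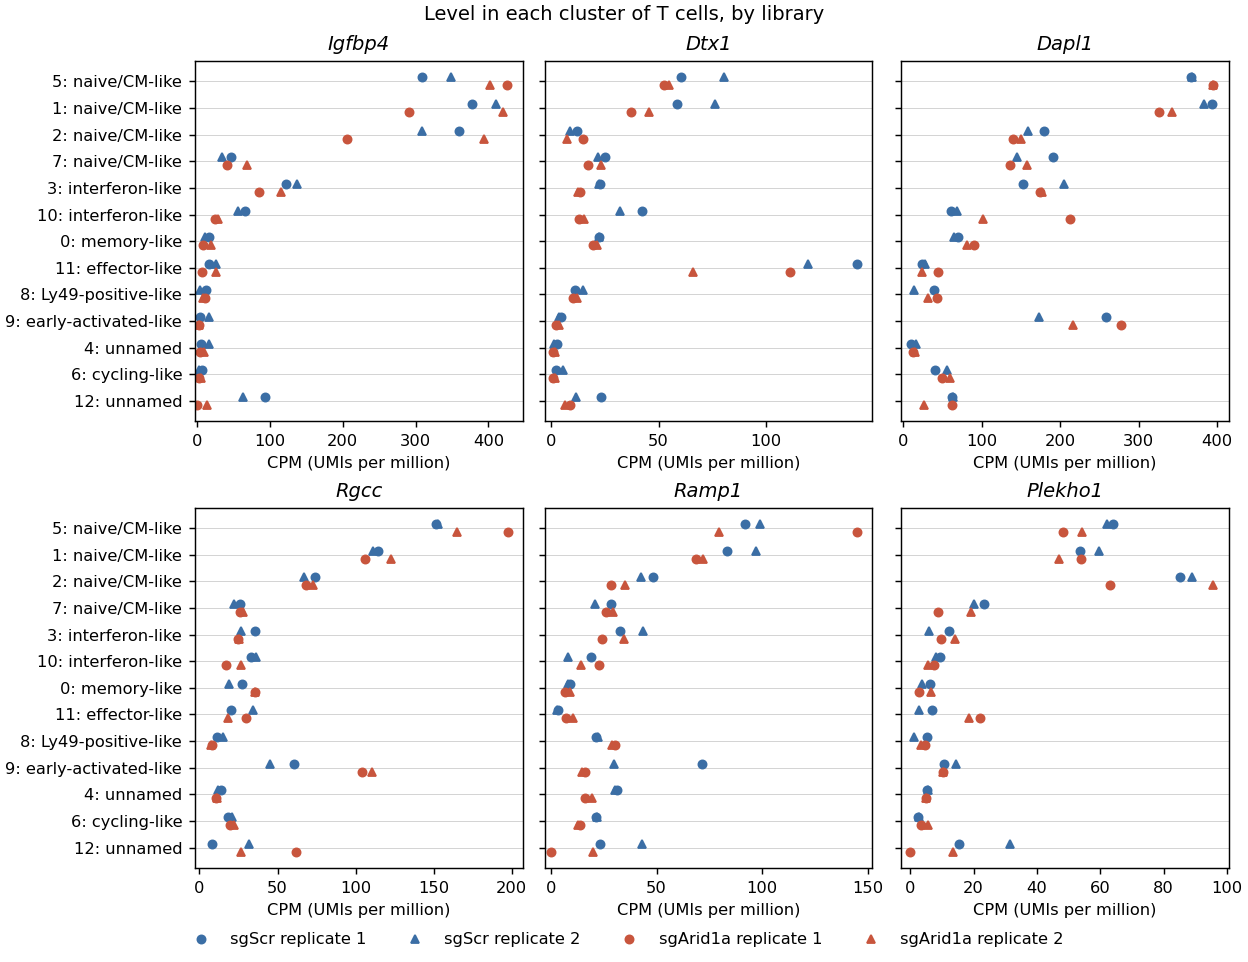
Level of each gene (x axis, CPM on a linear scale) in each T cell cluster (y axis), with 1 point per library, blue for sgScr and red for sgArid1a, circles for replicate 1 and triangles for replicate 2. CM stands for central memory. Dtx1 reaches its highest values in cluster 11, Dapl1 and Rgcc have a second site in cluster 9, and Plekho1 peaks in cluster 2.

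Across the 12 clusters with at least 50 cells in every library, the 6 patterns were not the same. Igfbp4 and Plekho1 followed each other most closely (Pearson r = 0.91 of log2(CPM + 1)), then Dapl1 and Rgcc (r = 0.86). Dtx1 and Ramp1 were least alike (r = 0.07). Among 7823 other genes, the 3 nearest to Igfbp4 were Auts2 (r = 0.94), the interleukin-6 receptor gene Il6ra and the amino acid transporter gene Slc6a19. Those nearest to Dtx1 were Rasgrp2 (r = 0.97), an activator of Rap1, the adhesion ligand gene Icam2 and Klf2. Dapl1 was closest to the mitochondrial isocitrate dehydrogenase gene Idh2 (r = 0.89), Utp14a and the homing receptor gene Ccr7. Rgcc was closest to Ptov1 (r = 0.82), Cpm and Idh2. Ramp1 was closest to Washc3 (r = 0.81), Stambpl1 and the actin crosslinker gene Actn1. Plekho1 was closest to Slc6a19 (r = 0.92), Gadd45g and Ptov1. These values describe clusters that share libraries, and carry no test.

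The 6 genes lie on 6 different chromosomes, and no annotated gene overlaps any of them. Promoters are shown because the genes fell together over all T cells. RefSeq sequence of the 250 bases before the start, on GRCm38.p6, was matched for 6 of 6, and the 3 whose RefSeq start equals the GENCODE start are printed 5′ to 3′ on the gene's own strand. The Igfbp4 window is chr11:99040994-99041243, that of Dapl1 chr2:59484403-59484652 and that of Ramp1 chr1:91179572-91179821, all on the plus strand. Capitals mark matches to the motifs searched on both strands.
Igfbp4: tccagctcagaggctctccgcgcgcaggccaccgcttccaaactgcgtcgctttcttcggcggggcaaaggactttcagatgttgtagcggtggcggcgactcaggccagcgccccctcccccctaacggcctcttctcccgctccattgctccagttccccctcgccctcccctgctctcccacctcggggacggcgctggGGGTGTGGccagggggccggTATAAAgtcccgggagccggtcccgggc
Dapl1: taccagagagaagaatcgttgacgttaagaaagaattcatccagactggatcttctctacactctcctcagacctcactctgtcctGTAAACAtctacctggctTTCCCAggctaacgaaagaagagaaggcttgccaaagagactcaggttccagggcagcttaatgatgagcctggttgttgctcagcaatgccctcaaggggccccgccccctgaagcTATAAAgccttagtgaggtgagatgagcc
Ramp1: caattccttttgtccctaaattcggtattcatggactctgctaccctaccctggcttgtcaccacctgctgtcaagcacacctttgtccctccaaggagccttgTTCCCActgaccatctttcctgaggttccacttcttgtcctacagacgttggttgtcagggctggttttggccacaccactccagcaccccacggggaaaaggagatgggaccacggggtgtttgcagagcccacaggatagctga
The letters searched were CTTTGNT for TCF/LEF, TGGGAA for RBPJ, CCACACCC for KLF, GTAAACA for FOXO, CCGGAAG for ETS and TATAAA for a TATA box. Igfbp4 held a KLF match (found in 3.2% of 32851 promoters of this length) and TATAAA (12.4%), whose last base lay 23 bases before the start. Dapl1 held a FOXO match (3.17%), an RBPJ match (21.6%) and TATAAA, and Ramp1 an RBPJ match. Plekho1 held a TCF/LEF match (16% of promoters), and Dtx1 and Rgcc held none of these. No motif was shared by more than 2 of the 6 windows. The RefSeq and GENCODE starts of Dtx1, Plekho1 and Rgcc are 258, 162 and 10 bases apart, so bases before the RefSeq start may be transcribed.

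The main comparison asked how these genes differed between the sgArid1a and control groups. Over all T cells, all 6 were lower in sgArid1a. Igfbp4 was read at 148 and 147 CPM in sgScr and at 46.0 and 58.1 CPM in sgArid1a. Dtx1 was read at 27.7 and 32.0 CPM against 10.4 and 10.5. Plekho1 was read at 31.5 and 30.8 CPM against 10.6 and 12.7. In each of these the lower control library was more than 2 times the higher sgArid1a library.

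The other 3 genes fell less. Ramp1 went from 44.6 and 43.9 CPM to 21.2 and 21.3. Rgcc went from 61.1 and 57.1 CPM to 33.8 and 35.1. Dapl1 went from 180 and 167 CPM to 106 and 97.9. The groups did not overlap for any of the 6. The log2 fold changes were -1.49 ± 0.08 for Dtx1, -1.47 ± 0.08 for Igfbp4, -1.38 ± 0.08 for Plekho1, -1.03 ± 0.06 for Ramp1, -0.75 ± 0.07 for Rgcc and -0.74 ± 0.07 for Dapl1 (SE). The edgeR adjusted p ranged from 1.32e-08 to 2.59e-06. Of all 12792 genes tested, 26.4% were lower by the same rule, so falls were common in this comparison. A sum over all T cells does not tell fewer cells of a state from a lower level per cell. The 6 genes were chosen as raised in naive-like cells. Those were 60.5 and 59.1% of T cells in sgScr and 24.5 and 25.3% in sgArid1a. The choice of genes thus favoured a fall over all T cells, and these p-values are no separate support for it.

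**Figure D2:**
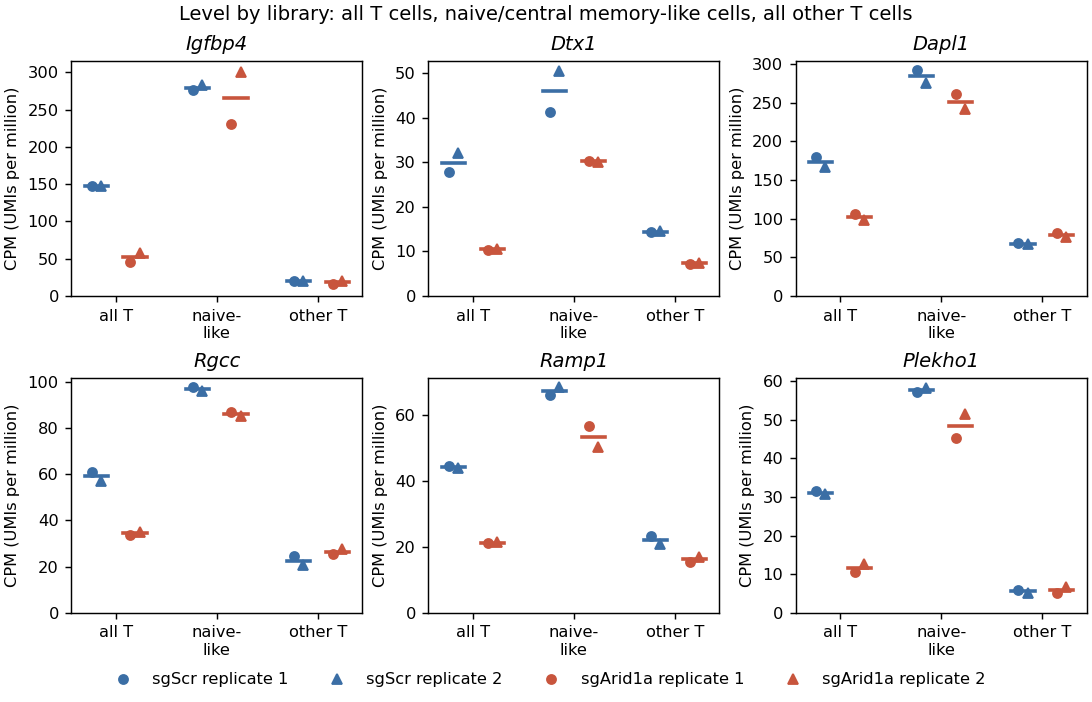
Level of each gene (y axis, CPM from 0) in all T cells, in naive-like cells and in all other T cells, with 1 point per library and a line at each group mean (n = 2). The groups are apart in all T cells for all 6 genes, a trait not counted over all genes. Within naive-like cells the gaps are smaller, with Igfbp4 overlapping.

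Within the naive-like cells, 2 of the 6 genes were lower in sgArid1a, by less than over all T cells. Dtx1 was read at 41.3 and 50.5 CPM in sgScr and at 30.3 and 30.1 CPM in sgArid1a, and fell by 0.55 on the log2 scale (SE 0.10, edgeR adjusted p = 0.00103). Ramp1 was read at 66.1 and 68.7 CPM against 56.7 and 50.2, and fell by 0.29 (SE 0.08, edgeR adjusted p = 0.0281). These 2 passed the test, where 2.63% of 10894 genes were lower.

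The other 4 did not pass within naive-like cells. Igfbp4 overlapped between groups, at 276 and 282 CPM in sgScr and 231 and 301 CPM in sgArid1a. The log2 fold changes were -0.12 ± 0.07 for Dapl1, -0.11 ± 0.07 for Rgcc and -0.18 ± 0.08 for Plekho1 (edgeR adjusted p = 0.37, 0.368 and 0.173). Their control libraries were above their sgArid1a libraries, by less than over all T cells.

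Both calls depended on the libraries and settings used. With DESeq2 neither was called, as Ramp1 had an adjusted p of 0.118 and Dtx1 was given none (unadjusted p = 0.000232). Without cluster 7, an alternative added after the data were seen, Ramp1 fell by 0.29 and did not pass (edgeR adjusted p = 0.0528). Dtx1 was lost without sgScr replicate 2 (edgeR adjusted p = 0.119), and Ramp1 without sgScr replicate 1, sgScr replicate 2 or sgArid1a replicate 2 (0.259, 0.42 and 0.396). Neither passed where naive-like cells came from a clustering that also left out all genes called between groups (0.19 and 0.0977). The makeup of the class was uneven. Cluster 5 held 31.5 and 33.9% of the naive-like cells in sgScr and 3.5 and 11.3% in sgArid1a, and cluster 1 held 25.5 and 23.3% against 64.5 and 35.4%. Within cluster 1 alone, Dtx1 fell by 0.68 (edgeR adjusted p = 0.0381, where 0.0769% of 9101 genes were lower), and this was lost without either sgScr library. The fall was 0.85 without sgScr replicate 1 (adjusted p = 0.306) and 0.51 without sgScr replicate 2 (0.943).

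The difference over all T cells was then set beside one computed at a common mix of clusters, in which every library was given the same cluster shares. Igfbp4 moved from -1.48 to -0.03 on the log2(CPM + 1) scale, Dapl1 from -0.76 to -0.01 and Plekho1 from -1.35 to -0.17. Ramp1 moved from -1.02 to -0.19 and Rgcc from -0.76 to 0.17. Dtx1 kept the largest difference of the 6, at -0.43 against -1.43. These values have no test, and they depend on the clusters. With clusters built without the genes called between groups, all 6 stayed lower, from -0.32 for Dapl1 to -0.83 for Dtx1. Those clusters were broader, and the one named cycling-like held 7138 cells with 8 exhaustion markers raised as well. A common mix of them does not hold equal the states joined within a cluster. With the main clusters, Igfbp4 was 0.20 without sgArid1a replicate 1 and -0.23 without sgArid1a replicate 2.

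The cells that supplied each gene's UMIs differed between the groups. In sgScr, naive-like cells held 93.2 and 92.7% of the Igfbp4 UMIs, and in sgArid1a 69.1% in both libraries. For Dapl1 the shares were 80.8 and 79.4% against 33.8 and 33.0%, and for Plekho1 90.5 and 91.3% against 59.1 and 54.1%. Dtx1, Rgcc and Ramp1 had 73.8 to 81.2% of their UMIs in naive-like cells in sgScr and 31.4 to 40.2% in sgArid1a. The same cells held 49.8 and 48.2% of all UMIs in sgScr and 13.8 and 13.3% in sgArid1a. These clusters were built with genes that differ between the groups. In them, naive-like cells were 60.5 and 59.1% of T cells in sgScr and 24.5 and 25.3% in sgArid1a. In the clustering without genes called between groups, they were 33.1 and 32.1% of the cells kept in sgScr. In sgArid1a they were 27.2 and 18.5%.

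**Figure D3:**
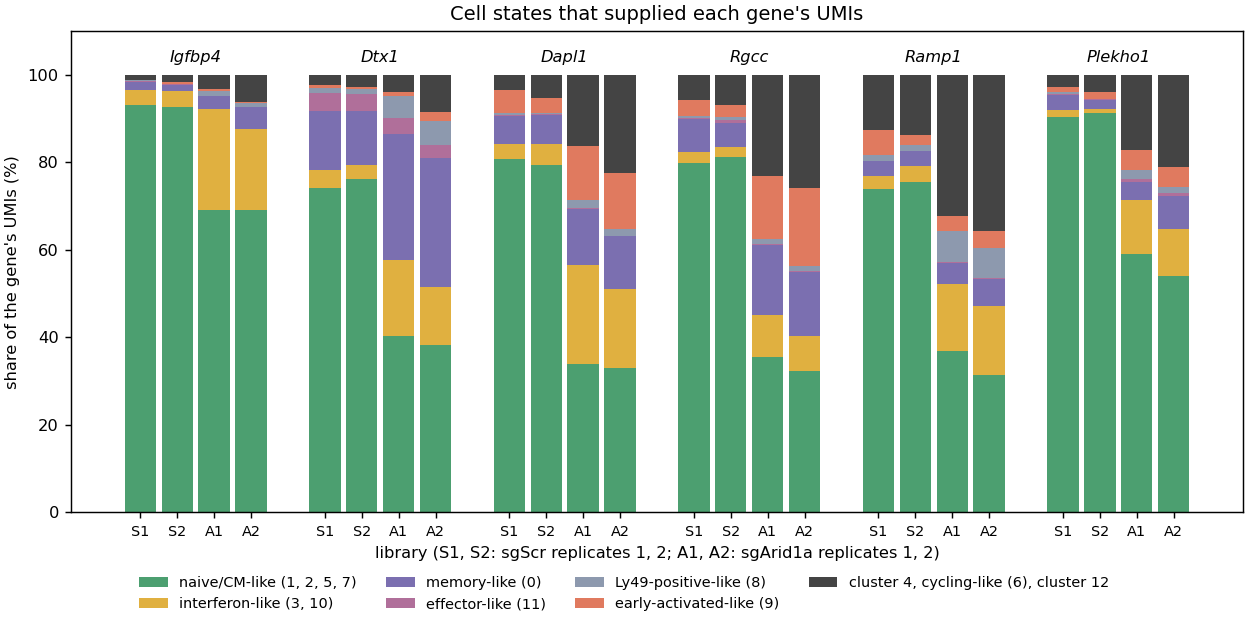
Share of each gene's UMIs (y axis, percent) that came from each group of clusters (colours, cluster numbers in brackets), with 1 stacked bar per library. The naive-like share is larger in both sgScr libraries than in both sgArid1a libraries for all 6 genes.

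Outside the naive-like cells some of these genes moved the other way. In early-activated-like cells, Rgcc was read at 60.6 and 45.2 CPM in sgScr and at 104 and 111 CPM in sgArid1a. It rose by 1.09 ± 0.16 on the log2 scale (edgeR adjusted p = 3.19e-05, where 1.5% of 8394 genes were higher), and passed without any 1 library. Ramp1 went the opposite way in the same cells, from 71.4 and 29.8 CPM to 16.2 and 14.9, a fall of 1.69 (SE 0.26, edgeR adjusted p = 9.09e-05, where 0.691% were lower). That fall was 0.87 and did not pass without sgScr replicate 1 (adjusted p = 0.21).

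In memory-like cells, Dapl1 rose from 69.8 and 64.5 CPM to 90.0 and 81.2 (log2 0.40 ± 0.09, edgeR adjusted p = 0.00568). Rgcc rose there from 27.0 and 18.6 CPM to 35.5 and 35.3 (log2 0.68 ± 0.13, edgeR adjusted p = 0.000683). These were 2 of the 6, where 3.11% of 10171 genes were higher. Without sgScr replicate 2 neither passed, at 0.34 for Dapl1 and 0.44 for Rgcc (edgeR adjusted p = 0.33 and 0.3).

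Ramp1 was also lower in 2 states of activated cells. In cluster 4 it was read at 31.4 and 30.2 CPM in sgScr and at 15.9 and 19.5 CPM in sgArid1a (log2 -0.71 ± 0.15, edgeR adjusted p = 0.00383, where 4.82% of 10221 genes were lower). In cycling-like cells it was read at 21.2 and 21.7 CPM against 13.6 and 12.9 (log2 -0.64 ± 0.15, edgeR adjusted p = 0.00797, where 3.09% of 10702 genes were lower). Both passed without any 1 library.

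In all, 9 of 57 tests of a gene within a cluster passed edgeR's adjusted p, and 19 had an unadjusted p under 0.05. The remaining ones rested on 1 or 2 libraries. Dtx1 fell by 1.43 in cycling-like cells (edgeR adjusted p = 0.0417), on 9 to 44 UMIs per library, and did not pass without sgScr replicate 2, where the fall was 0.74, or without sgArid1a replicate 1. Igfbp4 rose by 0.58 in naive-like cluster 7 (edgeR adjusted p = 0.0237, where 1.21% of 9319 genes were higher), and did not pass without sgScr replicate 2, at 0.36, or sgArid1a replicate 2, at 0.06. In the effector-like cells, where Dtx1 was highest, its log2 fold change was -0.68 ± 0.28 (edgeR adjusted p = 0.365).

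**Figure D4:**
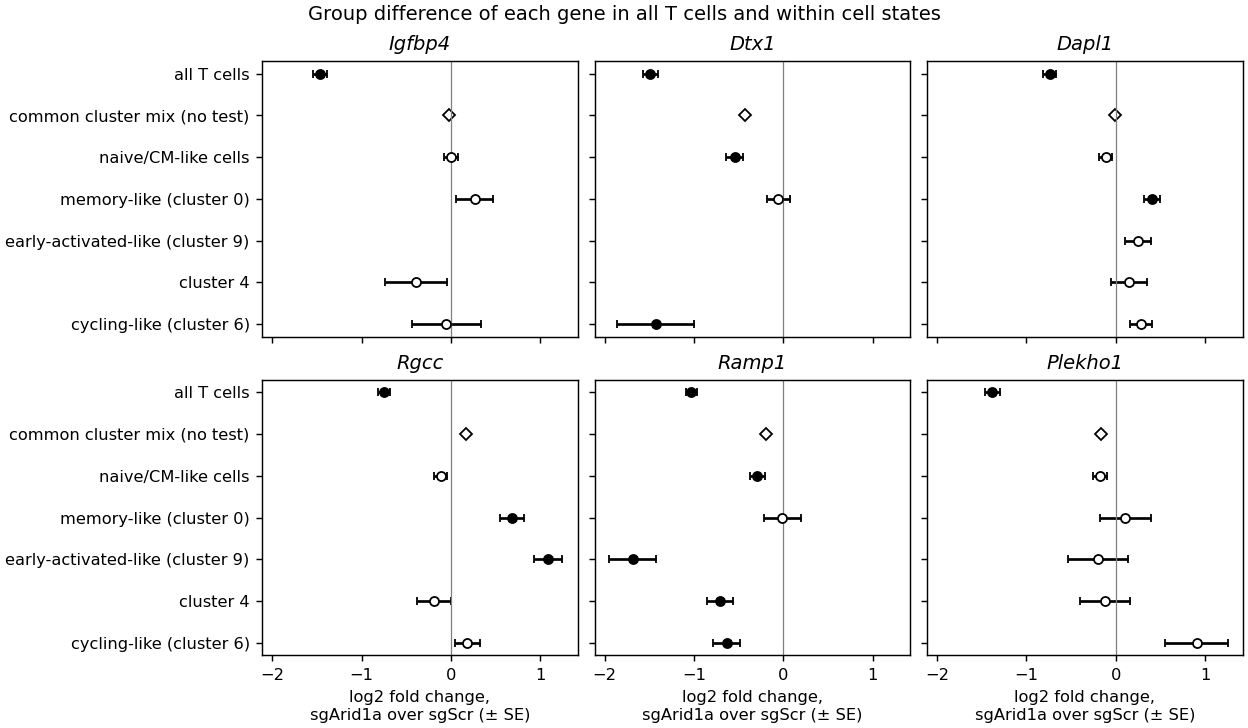
Log2 fold change of each gene, sgArid1a over sgScr (x axis), in all T cells and within cell states (y axis), with bars of 1 SE. Filled points passed the edgeR test at an adjusted p under 0.05, open points did not, diamonds are the untested values at a common cluster mix, and a missing point was under the filter on low counts. Rgcc is right of 0 in clusters 0 and 9 and left of 0 in all T cells.

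Whether the group difference itself varied between states was tested as an interaction. Between naive-like and memory-like cells, the effect on Dapl1 differed by -0.52 ± 0.08 and that on Rgcc by -0.80 ± 0.12 (edgeR adjusted p = 0.00116 and 0.00157, naive-like minus memory-like). These were 2 of the 6, where 1.21% of 10908 genes passed. Both passed without any 1 library. For Dtx1 the difference was -0.49 ± 0.13 (edgeR adjusted p = 0.0831), and it passed with no filter on low counts (0.0475). Between naive-like and early-activated-like cells, a comparison added after the data were seen, 3 of the 6 differed (Rgcc, Ramp1 and Igfbp4), where 0.98% of genes passed.

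The number of these genes found in 1 naive-like cell was small. At 1500 UMIs per cell, a naive-like cell held a UMI of 0.895 and 0.905 of the 6 genes on average in sgScr and of 0.788 and 0.81 in sgArid1a. The group means differed by -0.10 at this depth, by -0.08 at 1000 UMIs per cell and by -0.30 at 2500, where fewer cells were deep enough to enter. Cells with 3 or more of the 6 were 5.48 and 6.11% against 4.73 and 4.53%. In all other T cells the mean was 0.185 and 0.169 in sgScr and 0.203 and 0.196 in sgArid1a.

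The level of Igfbp4 was also read by the receptor segment of a cell, its Trbv gene. Cells with Trbv20 numbered 160 and 138 in sgScr and 609 and 790 in sgArid1a. Igfbp4 in them was at 249 and 228 CPM in sgScr and at 5.42 and 13.7 CPM in sgArid1a. Naive-like cells were 115 and 95 of these in sgScr and 35 and 64 in sgArid1a, and within them Igfbp4 was at 373 and 343 CPM against 143 and 168, on 12 and 36 UMIs in sgArid1a. Cells with Trbv13-1 had Igfbp4 at 120 and 115 CPM in sgScr and at 17.4 and 16.8 CPM in sgArid1a. Their naive-like cells did not show that gap, at 277 and 253 CPM against 281 and 336. In cells assigned a Trbv segment other than Trbv20 or Trbv13-1, Igfbp4 was at 132 and 133 CPM against 52.1 and 73.8. Cells with no assigned segment were left out of these values. When the cells of both segments were left out, an alternative added after the data were seen, all 6 genes were still lower over all T cells, from -0.43 for Dapl1 to -1.14 for Dtx1 (edgeR adjusted p up to 0.000141).

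Among genes that work with the 6, the neighbours of the naive state fell together over all T cells. All 15 of 15 listed genes were lower, with a median log2 fold change of -1.10, against -0.02 over all genes. Klf3 fell by 1.34, Il6ra by 1.45 and the Wnt-pathway factor gene Lef1 by 1.24. Within naive-like cells only Il7r (-0.37), Klf3 (-0.35) and Il6ra (-0.25) of the 15 passed. This list was drawn up with earlier results known. Beside the 26.4% lower, 28% of all genes tested were higher over all T cells, against which the lists below are read.

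For Ramp1, its receptor partner Calcrl was read at 5.75 and 7.61 CPM in sgScr and at 3.84 and 3.24 CPM in sgArid1a (log2 -0.91 ± 0.15, edgeR adjusted p = 0.000173). In naive-like cells Calcrl was at -0.35 ± 0.19 (edgeR adjusted p = 0.285). Of 7 tested genes of the CGRP pathway, 4 were higher, among them Crcp, a receptor component (0.24), and Calca, which encodes CGRP itself and stayed under 1 CPM in every library.

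For Dtx1, the Notch list had 10 genes lower and 3 higher of 22 tested. Rbpj, the DNA-binding factor of the pathway, rose from 31.5 and 30.8 CPM to 72.8 and 68.9 (log2 1.21 ± 0.07), while the coactivator genes Maml3 (-1.52) and Maml2 (-0.56) fell. Notch1 was at -0.16 ± 0.07 and did not pass (edgeR adjusted p = 0.0539). In naive-like cells Maml3 alone of 20 passed (-0.44), and Rbpj was at 0.08 ± 0.14. Of 9 genes of the anergy programme, 3 were higher and 3 lower, led by the diacylglycerol kinase gene Dgka (-0.89), the transcription factor gene Egr2 (0.94) and the ubiquitin ligase gene Itch (-0.40).

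For Igfbp4, 3 genes fell and 1 rose of 6 tested. The receptor genes Igf1r (-1.52) and Insr (-1.04) and the adaptor gene Irs2 (-0.85) fell, and the related binding protein gene Igfbp7 rose (2.01). In naive-like cells Igf1r was at -0.28 ± 0.15 and Insr at -0.16 ± 0.11, and neither passed (edgeR adjusted p = 0.269 and 0.421). For Rgcc, its partner Cdk1 rose (1.28), with Ccnb1 (1.08) and Ccnb2 (1.07), the cyclins of that kinase, and Plk1, 4 of 5 tested. Cycling-like cells (cluster 6) were 231 of 7636 and 221 of 7158 T cells in sgScr. In sgArid1a they were 1048 of 10695 and 1332 of 12772. In the clustering without genes called between groups, the cluster named cycling-like was broader, with 8 exhaustion markers raised as well. It held 910 of 7646 and 888 of 7169 cells in sgScr and 2269 of 10711 and 3071 of 12790 in sgArid1a. The part of cycling-like cells in this rise was not tested. For Plekho1, 3 genes rose and 1 fell of 8 tested. The casein kinase 2 subunit gene Csnk2b (0.53), the actin capping gene Capzb (0.45) and the kinase gene Akt1 (0.28) rose and the ubiquitin ligase gene Smurf1 fell (-0.84). Within naive-like cells Csnk2b (0.36) and Capzb (0.25) passed as well, where 5.08% of all genes were higher.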

How the data were processed

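The deposited files hold whole-number UMI counts, not normalized. They were made with Cell Ranger 6.0.1 per the file headers, and the submitters' processing notes name version 3.0.2, Seurat and build mm10, a difference not settled here. Doublet removal is not stated, and no doublet caller was run; leaving out cells with 2 or more Trbv segments was an alternative. Barcodes under 500 genes or above 10% mitochondrial UMIs were dropped. Clusters came from scanpy 1.11.5 (2000 variable genes without the 6 genes, 30 components, 15 neighbours, Leiden resolution 0.8, seed 1). Names needed at least 3 raised markers, were rebuilt here and end in "-like"; 55 antigen-presenting cells were left out. Counts summed per sample, over groups of at least 50 cells per sample, were tested with edgeR 4.0.16. Settings were TMM, filterByExpr, quasi-likelihood and a Benjamini-Hochberg adjusted p under 0.05 over all genes. With 2 against 2 samples, an exact permutation p is 0.333 at least. In simulated data, 77.8% of 1.5-fold changes were recovered over all T cells and 64.6% in naive-like cells. False calls were 1.56 to 11.0% of the genes called, in some runs above the share that 0.05 stands for. The common mix used clusters of at least 20 cells per sample and a pseudocount of 1 CPM, which understates changes of low genes. Named genes are the 6, the 3 most similar to each, and, per pathway list, partners and the 3 smallest p; others named beside a list were chosen after their values were seen. Members and lists were chosen with earlier results of these data known.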

Additional observations from a re-analysis of the deposited data

Results flagged for a closer look

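The group effect differed between cell states for 4 of the 6 genes, by a test of the difference itself (edgeR interaction term, sample as a block). Against memory-like cells, the effect in naive-like cells was lower by -0.52 for Dapl1 and -0.80 for Rgcc on the log2 scale. Against early-activated-like cells, a comparison added after the data were seen and in which 0.98% of 10713 genes passed, the difference was -1.22 for Rgcc (edgeR adjusted p = 1.93e-06), 1.37 for Ramp1 (0.00126) and 1.80 for Igfbp4 (0.0455). The Rgcc difference passed without any 1 library. That of Ramp1 was 0.55 without sgScr replicate 1 (edgeR adjusted p = 0.657). That of Igfbp4 rests on 6 to 19 UMIs per library in early-activated-like cells, and did not pass without sgScr replicate 2 (0.63) or sgArid1a replicate 2 (1.38).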

How the results depend on the processing

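All 6 genes were lower over all T cells under each of 11 alternatives. They included DESeq2, no filter on low counts, a replicate block and a stricter cell filter. Others left out cells with 2 or more Trbv segments, or each library in turn. Added after seeing the data were fits without cycling-like cells and without Trbv13-1 or Trbv20 cells. Replicate numbers did not pair the samples (correlation of deviations -0.042 over all T cells and -0.0563 in naive-like cells), and with the replicate block 6 genes were lower over all T cells and 2 in naive-like cells, as without it. Of the 2 genes lower within naive-like cells, 0 passed with DESeq2 (2 at an unadjusted p under 0.05, and Dtx1 had no adjusted p), 0 with clusters built without called genes (3 unadjusted), 1 without cluster 7 and 0 to 3 with a library left out (edgeR; 2 unadjusted where 0 passed, without sgScr replicate 2). The interaction with memory-like cells passed for 5 genes when the 6 were among the variable genes. With early-activated-like cells as the other class, the difference turned to 1.80 for Igfbp4 and 1.37 for Ramp1. Igfbp4 in cluster 2 ranged from -0.59 without sgArid1a replicate 2 to 0.27 without sgArid1a replicate 1. The median of the 6 at a common mix was -0.10, and -0.59 with the broader clusters built without called genes. With a library left out it ranged from -0.149 to -0.0226. The difference in genes detected per naive-like cell was -0.10 at 1500 UMIs, -0.0807 at 1000 and -0.30 at 2500. The cause of these changes was not tested. At 1500 UMIs most cells hold none or 1 of the 6, which limits what is seen per cell.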
